A study of Homo sapiens with 4 samples.

Results

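Of the 19381 genes counted in SK-LMS-1 cells, 9 encode the enzymes that make, recycle or remove deoxynucleotides, the building blocks of DNA. They were taken by gene symbol: RRM1, RRM2, RRM2B, TYMS, TK1, DUT, DCK, DCTD and SAMHD1. All 9 were in the table and all 9 were among the 12906 genes with enough reads to be tested. SK-LMS-1 is an established human leiomyosarcoma line, which the labels list as uterine. RNA was sequenced from 2 untreated libraries and from 2 libraries of cells kept with 2-D08 at 50 µM over 48 h. 2-D08 is a flavone that blocks the transfer of SUMO, a small protein modifier, onto other proteins. The labels name no vehicle for the untreated cells, and both groups come from 1 line. Whether the 2 libraries of each group are separate cultures is not stated, and p-values then cover only the variation among these 4 libraries, which may be technical.

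A cell can build deoxynucleotides from ribonucleotides or salvage them from deoxynucleosides. Ribonucleotide reductase carries out the first route and consists of a large subunit (RRM1) joined with a small subunit, which is RRM2 in dividing cells and can be RRM2B, a form known to respond to DNA damage. DCTD, DUT and TYMS lead to the thymine nucleotide, TK1 and DCK phosphorylate salvaged deoxynucleosides, and SAMHD1 degrades deoxynucleoside triphosphates. Many of these genes are known to rise around S phase, when DNA is copied.

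The 4 libraries held 14796702 to 31300635 counts in total. In untreated replicate 1 and 2-D08 replicate 2, 89.0% and 88.8% of nonzero counts were even numbers, against 48.4% and 47.9% in the other two, and all 9 enzyme genes had even counts in those 2 libraries. Halving those 2 libraries left the same 4 enzyme genes called. The line was checked against smooth muscle markers. CALD1 had 6693 to 19026 counts, SMTN 1818 to 4746, TAGLN 225 to 803, ACTA2 46 to 197, CNN1 31 to 120 and MYH11 10 to 24. DES, a defining marker of muscle, had 0 in all 4 libraries and MYOCD 0 to 2. Of 6 smooth muscle markers tested 1 was higher (SMTN) and 3 were lower (TAGLN, CNN1 and CALD1) with 2-D08. The immune marker TYROBP was at 0 in all 4 libraries and PTPRC at 4 to 16 counts, while the summed level of the immune list was 62.2 and 66.6 CPM (library-size-scaled counts with TMM factors) untreated and 98.2 and 98.8 with 2-D08. Most of that sum was CD68, at 60.4 and 65.3 CPM untreated and 93.4 and 92.6 CPM with 2-D08. The summed epithelial list was 339 and 299 CPM untreated and 273 and 225 CPM with 2-D08. Most of it was KRT18, with 3168 to 6439 counts per library. EPCAM had 8 to 24 counts and CDH1 0 to 12. The part of these markers in the results below was not tested. In bulk RNA, fewer cells of a type and less RNA per cell cannot be told apart.

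Start-site sequences are shown because known S phase promoters often carry E2F sites, bound by the E2F cell-cycle factors, or CCAAT boxes, bound by NF-Y. RefSeq windows (GRCh38.p14, from 250 bases before to 50 after an annotated start) were found for 8 of the 9 genes, 14 windows in all, and RRM2B had no entry. Both strands were searched for TTTGGCGC, TTTCCCGC, TTTGCCGC and TTTCGCGC as E2F letters and for CCAAT. The motifs are matched letters, not measured binding. Each line gives the strand of the gene, 5′ to 3′, with the matched letters in capitals. A match on the other strand reads ATTGG for the CCAAT box, and GCGCCAAA or GCGGGAAA for E2F.
RRM2 site 1, chr2:10122606-10122630 (+): caaggcgcagCCAATgggaagggtc
RRM2 site 2, chr2:10122636-10122660 (+): catggcacagCCAATgggaagggcc
RRM2 site 3, chr2:10122663-10122687 (+): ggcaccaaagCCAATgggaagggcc
RRM1, chr11:4094647-4094671 (+): atgtccatatCCAATggggcccatg
TYMS, chr18:657604-657631 (+): cgggacggccGCGGGAAAaggcgcgcgg
DCK, chr4:70993660-70993687 (+): ctgcctccgcGCGCCAAAgtcaaacccc
DUT, chr15:48332152-48332180 (+): ctgGCGGGAAAtttcggtTTTGGCGCgct
TK1 site 1, chr17:78187115-78187139 (−): ccgggcgctgATTGGccccatggcg
TK1 site 2, chr17:78187084-78187108 (−): ccggctcgtgATTGGccagcacgcc
SAMHD1, chr20:36951735-36951764 (−): caggaggCCAATaggctgCCAATactcctt

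The RRM2 start at position 10122739 had 3 CCAAT boxes in 1 window, a number reached by 3.26% of all 35116 windows of the same length. These boxes begin 123, 93 and 66 bases before that start, and their printed stretches overlap transcribed RRM2 sequence in GENCODE release 29. The printed stretches of TYMS, DUT, DCK, TK1 and SAMHD1 also overlap annotated untranslated sequence of their genes, and that of RRM1 does not. A second RRM2 window, at 10122568, held 1 more box. At least 1 CCAAT box occurred in 34.6% of all windows and at least 1 of the E2F letters in 3.31%. E2F letters were in windows of 3 genes (TYMS, DUT and DCK), and a DUT window held 2 matches, as 0.145% of all windows did. DCTD had neither motif in its windows. Matches thus occurred both in genes that rose with 2-D08 (RRM1, RRM2, TYMS, DCK) and in genes not called changed (DUT, TK1, SAMHD1).

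**Figure D1:**
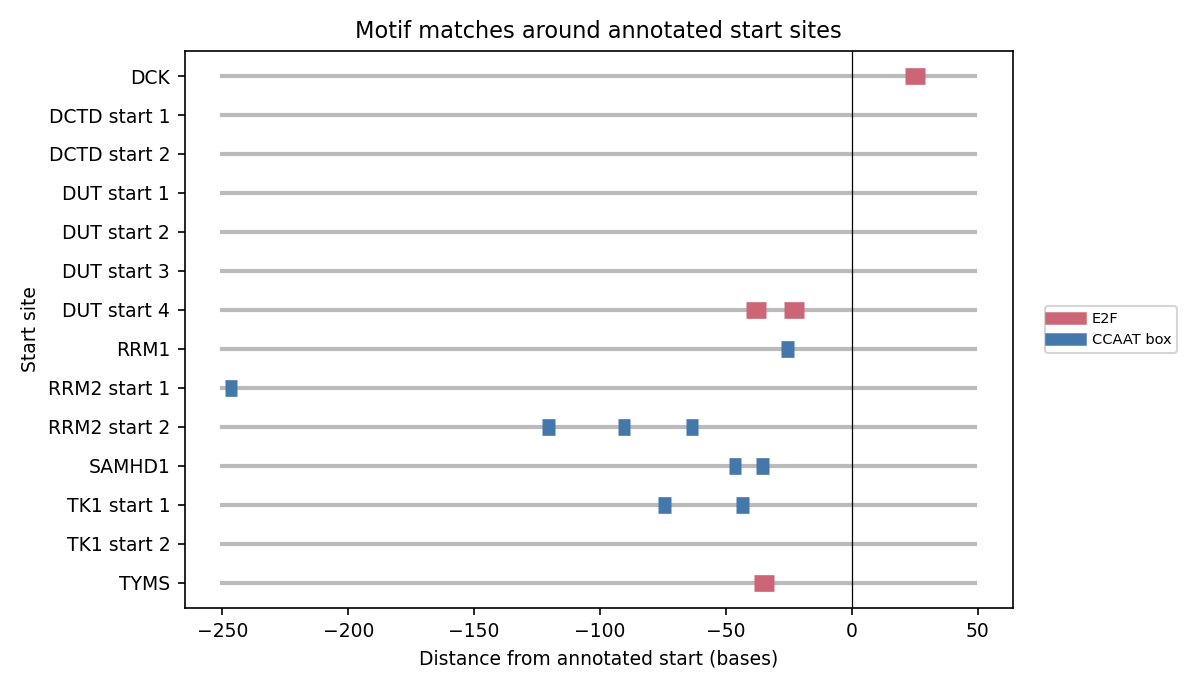
Matches to E2F letters (red) and CCAAT boxes (blue) in 14 RefSeq windows of 8 genes, by distance in bases from the annotated start (vertical line). The 3 boxes of RRM2 start 2 and the 2 E2F matches of DUT start 4 stand before the start, and the DCK match after it.

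Transcripts of 4 of the 9 enzymes rose with 2-D08 (RRM2, DCK, TYMS and RRM1) and none was called lower. RRM2 rose most, 2.36-fold, and the other 3 rose 1.40- to 1.65-fold. RRM2B, DUT, TK1, DCTD and SAMHD1 did not pass the threshold, an adjusted p under 0.05 in edgeR's quasi-likelihood test over all genes tested. Among all 12906 genes, 33.9% were called, 17.1% higher and 16.9% lower, so the number of enzyme genes called higher, 4 of 9, is read against 17.1%. The median log2 fold change of the 9 enzyme genes was 0.10, and that of all genes was -0.003. The summed level of the 9 went from 1187 and 1235 CPM in the untreated libraries to 1975 and 1984 CPM with 2-D08, and RRM2 made up 35.7% and 37.0% of that sum untreated and 52.4% and 52.5% with 2-D08.

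**Figure D2:**
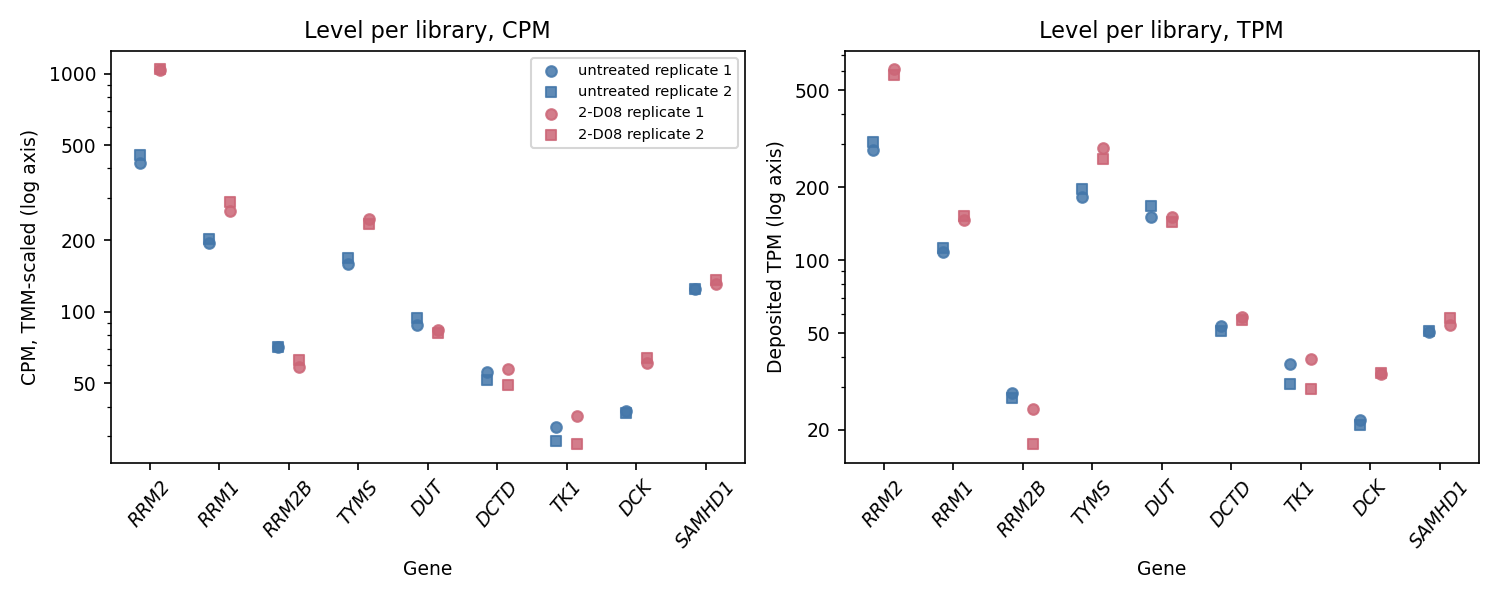
Level of each enzyme gene in each of the 4 libraries, as CPM (left) and as deposited TPM (right), both on log axes. RRM2 stands at 423 and 457 CPM in the untreated libraries (blue) and at 1035 and 1042 CPM with 2-D08 (red), and RRM1, TYMS and DCK also separate upward, while the groups of TK1 overlap on both scales.

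RRM2 (chr2:10120698-10131419, plus strand, GENCODE release 29 on GRCh38 as for all gene positions below) encodes the small subunit that carries the radical needed for the reaction. Its read counts were 12554 and 7556 untreated, and 15582 and 32146 with 2-D08. On the CPM scale these were 423 and 457 untreated and 1035 and 1042 with 2-D08. Both treated libraries stood well above both untreated ones, and the 2 treated values were almost equal. The means were 440.3 ± 24.2 and 1039 ± 4.72 CPM (SD, n = 2 per group). The log2 fold change was 1.24 ± 0.09 (SE; 95% interval 1.05 to 1.43; edgeR adjusted p = 4.15e-07), larger in size than that of 95.2% of genes tested. RRM2 was called under all 15 alternative settings, at 1.01 to 1.29.

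The deposited TPM of RRM2, a level per transcript length, showed a smaller rise, from 284 and 306 to 610 and 581, which is 2.02-fold against 2.36-fold in CPM. The TPM assigned per CPM was 0.671 and 0.668 untreated, and 0.589 and 0.558 with 2-D08. How the TPM were computed from the transcripts of the gene is not given in the sources used here. GENCODE lists 3 named RRM2 pseudogenes, none of them in the count table. AC007240.1, listed there as protein-coding, overlaps RRM2 on the same strand over 8681 bases and is not in the count table either.

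RRM1 (chr11:4094707-4138876, plus strand) encodes the large subunit, which holds the active site and the sites that sense nucleotide levels. It was at 194 and 201 CPM untreated and at 266 and 288 CPM with 2-D08, with no overlap. The log2 fold change was 0.49 ± 0.09 (SE; 95% interval 0.29 to 0.68; edgeR adjusted p = 0.00108; n = 2 per group), smaller than that of its partner RRM2. RRM1 was called in 14 of 15 alternative settings and lost only without untreated replicate 1 (edgeR adjusted p = 0.0571).

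RRM2B (chr8:102204502-102239118, minus strand) encodes the alternative small subunit, known for supplying deoxynucleotides outside S phase and after DNA damage. Its level was 71.5 and 70.9 CPM untreated and 58.7 and 62.8 CPM with 2-D08. Both treated libraries were below both untreated ones. The log2 fold change of -0.23 ± 0.10 (SE; 95% interval -0.44 to -0.02) gave an edgeR adjusted p of 0.0853 and was not called. It passed the threshold in 2 of 15 settings, without 2-D08 replicate 2 (-0.28, adjusted p = 0.0236) and under a replicate block (adjusted p = 0.0110). In TPM, RRM2B was 28.3 and 27.1 untreated and 24.5 and 17.5 with 2-D08, so the second treated library was lower on this scale than on the CPM scale.

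TYMS (chr18:657604-673578, plus strand) encodes thymidylate synthase, which makes the thymine nucleotide from deoxyuridylate. It was at 158.5 and 168 CPM untreated and 246 and 234 CPM with 2-D08. The groups were clearly apart, with means of 163 ± 7.01 and 240 ± 8.53 CPM (SD, n = 2 per group). Its log2 fold change was 0.55 ± 0.09 (SE; 95% interval 0.36 to 0.75; edgeR adjusted p = 0.000434), and it was called in 15 of 15 alternative settings. TYMS shares 3255 bases with ENOSF1 on the opposite strand, and whether the counting used strand is not given in the sources used here, so reads of the 2 genes in that stretch may not be told apart. ENOSF1 itself fell, by 0.50 on the log2 scale (edgeR adjusted p = 0.0034), with means of 45.1 ± 1.26 CPM untreated and 32.0 ± 1.25 CPM treated (SD; n = 2 each).

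DUT (chr15:48331011-48343373, plus strand) encodes the phosphatase that removes dUTP and so makes the substrate of TYMS while keeping uracil out of DNA. It was at 87.7 and 94.6 CPM untreated and at 83.8 and 81.2 CPM with 2-D08. The groups did not overlap, but the gap was small and the log2 fold change, -0.14 ± 0.09 (SE; 95% interval -0.34 to 0.06; edgeR adjusted p = 0.253; n = 2 per group), was not called in any setting. GENCODE names 8 DUT pseudogenes, none in the count table. DCTD (chr4:182890060-182917936, minus strand), the deaminase that feeds deoxyuridylate to TYMS from deoxycytidylate, was at 56.0 and 51.8 CPM untreated and 57.3 and 49.4 CPM with 2-D08. Here the treated libraries stood on either side of the untreated ones. Its log2 fold change was -0.02 ± 0.11 (SE; 95% interval -0.26 to 0.21; edgeR adjusted p = 0.899), and 4 of 15 settings gave a positive value, up to 0.13.

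The salvage kinases differed from each other. DCK (chr4:70992538-71030914, plus strand), which phosphorylates deoxycytidine and purine deoxynucleosides and activates nucleoside drugs such as cytarabine and gemcitabine, was at 38.2 and 37.7 CPM untreated and 60.9 and 63.9 CPM with 2-D08. The 2 libraries of each group lay close together. The log2 fold change was 0.72 ± 0.10 (SE; 95% interval 0.50 to 0.94; edgeR adjusted p = 0.000159; n = 2 per group), and DCK was called in 15 of 15 settings. MOB1B overlaps DCK on the same strand over 29912 bases and was level, at 76.1 ± 3.24 and 76.0 ± 9.21 CPM (SD; edgeR adjusted p = 0.973; n = 2 per group).

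TK1 (chr17:78174075-78187233, minus strand), the cytosolic thymidine kinase and a common marker of proliferation, was at 33.0 and 28.7 CPM untreated and 36.5 and 27.9 CPM with 2-D08. The treated libraries were the highest and the lowest of the 4, so the groups overlapped. The log2 fold change of 0.05 ± 0.14 (SE; 95% interval -0.26 to 0.35) was not called (edgeR adjusted p = 0.826), and it was negative in 3 of 15 settings. The upper bound of the TK1 interval lies below the lower bound of the DCK interval.

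SAMHD1 (chr20:36889773-36951901, minus strand), the hydrolase that lowers deoxynucleoside triphosphate pools outside S phase and restricts retroviruses in immune cells, was at 124.4 and 124.2 CPM untreated and 130.9 and 135.4 CPM with 2-D08. Both treated values were slightly higher, by less than the test could call. The log2 fold change was 0.10 ± 0.09 (SE; 95% interval -0.09 to 0.29; edgeR adjusted p = 0.409; n = 2 per group), so a rise past 0.29 on the log2 scale lies outside the interval. TLDC2 overlaps SAMHD1 on the opposite strand and had 4 to 16 counts per library.

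**Figure D3:**
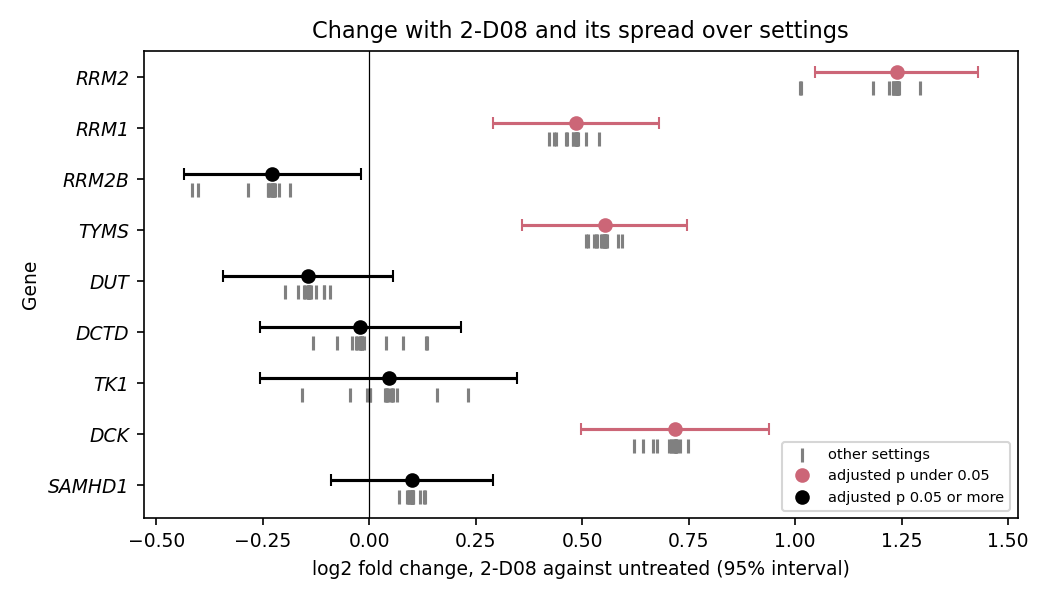
log2 fold change (2-D08 against untreated) of each enzyme gene with its 95% interval (points and bars; red, adjusted p under 0.05) and the values under 15 alternative settings (grey ticks). RRM2 at 1.24, DCK at 0.72, TYMS at 0.55 and RRM1 at 0.49 have intervals above 0, while ticks of TK1 and DCTD fall on both sides of 0. The interval of RRM2B lies below 0 (-0.44 to -0.02), although RRM2B was not called (edgeR adjusted p = 0.0853). Intervals are not adjusted for the number of genes tested.

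Levels of different genes were compared per transcript length, in deposited TPM. In the untreated libraries the order was RRM2, TYMS, DUT, RRM1, DCTD, SAMHD1, TK1, RRM2B and DCK, and among neighbours only DCTD (53.7 and 51.0 TPM) and SAMHD1 (50.8 and 51.2 TPM) had overlapping ranges. With 2-D08 RRM2 and TYMS stayed on top, at 610 and 581 TPM and at 289 and 260 TPM. RRM1, at 146 and 152 TPM, came to overlap DUT, at 151 and 144 TPM. DCK, the lowest of the 9 in untreated cells at 21.99 and 21.06 TPM, reached 33.9 and 34.4 TPM, within the range of TK1 (39.2 and 29.6 TPM), and RRM2B became the lowest.

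Ratios of 2 enzymes within a library do not depend on how libraries are scaled. The 6 pairs were compared with a two-sided exact permutation test, whose smallest possible p with 2 libraries against 2 is 0.333, so no pair could pass a threshold of 0.05. In all 6 pairs the groups did not overlap, and each exact permutation p was 0.333, also after Benjamini-Hochberg adjustment. The pairs share genes, such as RRM2 and TYMS, so they do not count as separate results. How often other gene pairs are set apart in this way was not counted. For each untreated RRM2B transcript there were 10.0 and 11.3 RRM2 transcripts per length, and 24.9 and 33.2 with 2-D08. RRM2B thus made up 9.06% and 8.15% of small-subunit TPM untreated, and 3.86% and 2.93% with 2-D08. The ratio of RRM2 to RRM1, small to large subunit, was 2.64 and 2.73 untreated and 4.18 and 3.83 with 2-D08.

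The other 4 ratios set synthesis against degradation, salvage and dUTP removal, and the salvage kinases TK1 and DCK against each other. RRM2 to SAMHD1 was 5.59 and 5.97 untreated and 11.3 and 10.04 with 2-D08. TYMS to TK1, synthesis against salvage of the thymine nucleotide, was 4.87 and 6.36 untreated and 7.36 and 8.81 with 2-D08, with a gap between the groups that was narrower than the spread within either. DUT to TYMS was 0.829 and 0.848 untreated and 0.521 and 0.554 with 2-D08. TK1 to DCK fell below 1 in 1 library only, 2-D08 replicate 2 (0.858), from 1.69 and 1.47 in the untreated libraries and 1.16 in 2-D08 replicate 1.

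**Figure D4:**
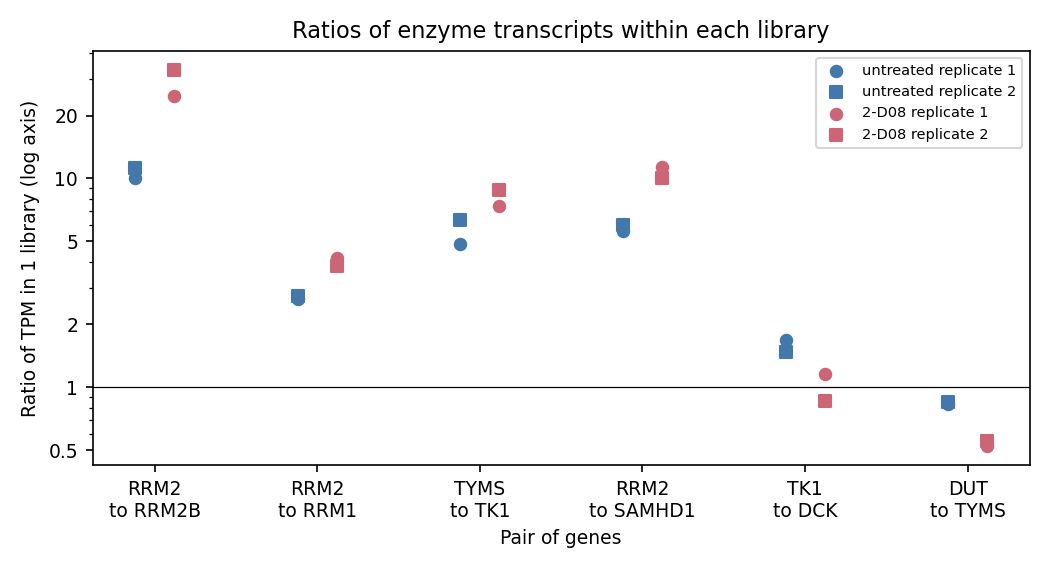
Ratio of deposited TPM of 2 enzymes within each library (log axis; line at 1), for 6 pairs, untreated in blue and 2-D08 in red. The groups are apart in all 6 pairs, each with an exact permutation p of 0.333, the smallest possible. The 2 treated RRM2 to RRM2B ratios, 24.9 and 33.2, lie above the untreated 10.0 and 11.3.

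Genes that work next to the 9 enzymes were described from 10 lists, by counts of calls and medians, beside 33.9% called over all genes. Of these lists 9 are given here. In the folate cycle that supplies TYMS, 1 of 9 genes was higher and 4 were lower, with a median log2 fold change of -0.20. Without untreated replicate 1 none was called higher and 3 were lower. The mitochondrial folate enzymes SHMT2 and MTHFD1L fell, SHMT2 from 195 to 105 CPM (-0.90) and MTHFD1L from 159 to 89.8 CPM (-0.82; edgeR adjusted p = 3.59e-05 and 1.71e-05). TYMS thus rose while these 2 suppliers of folate carbon fell.

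Kinases that raise nucleotides to di- and triphosphates gave few calls, 2 higher and 0 lower of 13 tested, with a median of 0.07, and CMPK1 and AK6 were those 2 (0.29 and 0.51; edgeR adjusted p = 0.0271 and 0.00962). NME2 was at -0.26 and not called (adjusted p = 0.0935). No kinase was called higher on the TPM scale or without untreated replicate 1, 1 was without untreated replicate 2 (CMPK1 not called, adjusted p = 0.195), AK6 was not called without 2-D08 replicate 2 (adjusted p = 0.0535), and 2 were lower without 2-D08 replicate 1. Of 6 genes for mitochondrial deoxynucleotides 2 were higher and 1 lower. TK2, the mitochondrial thymidine kinase, fell from 30.2 to 16.2 CPM (-0.91 ± 0.13 SE; edgeR adjusted p = 0.00016; n = 2 per group). Its deposited TPM did not show this, at 19.6 and 23.4 untreated and 42.0 and 12.7 with 2-D08, with the 2 treated libraries at opposite ends, and none of the 6 was called on that scale. SLC25A33, a carrier of pyrimidine nucleotides, rose from 15.8 and 14.9 CPM untreated to 21.3 CPM in both 2-D08 libraries (0.47; edgeR adjusted p = 0.0184; n = 2 per group), a call that did not hold without untreated replicate 1 or 2 (edgeR adjusted p = 0.137 and 0.171). In each of those 2 settings only 1 gene of the list was higher, and without 2-D08 replicate 2 there were 2 lower.

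Among 16 genes of deoxynucleotide breakdown and pool cleaning, 5 were higher and 4 lower, with a median of 0.15. PNP, which splits purine nucleosides, went from 54.7 and 52.8 to 143 and 121 CPM (1.29 ± 0.10 SE; edgeR adjusted p = 1.06e-06), whereas ADA, adenosine deaminase, went from 15.1 and 11.4 to 6.31 and 6.03 CPM (-1.12; adjusted p = 0.000562). The 2 enzymes act in sequence on purine deoxynucleosides and moved in opposite directions. NUDT18, a nucleotide-cleaning hydrolase, fell by 1.12 on the log2 scale (edgeR adjusted p = 0.00348), and was not called without untreated replicate 1 (adjusted p = 0.0904). In that setting the list had 1 gene higher and 1 lower, without untreated replicate 2 it had 2 higher, and on the TPM scale 1 higher and 3 lower.

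In pyrimidine synthesis 3 of 7 genes were higher and 1 lower, with a median of 0.10. CTPS1, which makes CTP, rose from 73.8 to 125 CPM (0.76; edgeR adjusted p = 5.21e-05) and UMPS, the last step to UMP, by 0.68 (adjusted p = 0.000427), while DHODH fell by 0.68 (-0.68; adjusted p = 0.0144), which was not called on the TPM scale or without untreated replicate 1 or 2. In purine synthesis 3 of 15 were higher and 3 lower, with a median of -0.00. PRPS1 (0.60) and PPAT (0.73), at the entry of the pathway, rose and IMPDH2, of the guanine branch, fell (-0.43; edgeR adjusted p = 0.000218, 0.000446 and 0.00227). This list had 1 higher and 1 lower on the TPM scale, 0 lower without untreated replicate 1 (IMPDH2 adjusted p = 0.0872), and 5 higher without 2-D08 replicate 1. Of 4 nucleoside transporters tested, SLC29A1, the main equilibrative carrier, rose from 42.1 and 44.0 to 73.3 and 59.6 CPM (0.62; edgeR adjusted p = 0.00105). SLC28A3 was also called higher, at only 0 and 4 counts untreated against 8 and 26 with 2-D08 (named after its values were seen), and 1 transporter in place of 2 was higher without untreated replicate 1, without 2-D08 replicate 2, on the TPM scale, with DESeq2, with the even libraries halved and with a filter at a mean of 5 CPM. SLC29A3 (-0.54, adjusted p = 0.101) and SLC29A2 (-0.40, adjusted p = 0.548) were not called, although 1 transporter was called lower without 2-D08 replicate 1.

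Of 22 genes known to regulate these enzymes, such as the E2F factors and the cyclins and kinases of S phase, 10 were higher and 2 lower, with a median of 0.24. CDK1, a kinase that acts on RRM2 and SAMHD1 proteins, rose from 97.8 and 97.5 to 206 and 214 CPM (1.11; edgeR adjusted p = 1.13e-06), and E2F8, a repressor among the E2F factors, from 9.91 and 11.6 to 28.2 and 31.2 CPM (1.48; adjusted p = 6.07e-06). Also called higher were E2F1 (1.32, edgeR adjusted p = 1.9e-05), E2F2 (1.53, adjusted p = 6.54e-05) and E2F3 (0.61, adjusted p = 0.000304), named after their values were seen. E2F4 and E2F7 were not called (edgeR adjusted p = 0.273 and 0.0757). On the TPM scale 6 regulators were higher and 1 lower, and without untreated replicate 1 or 2 only 1 was lower.

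Genes of the replication fork moved most as a list: 26 of 32 were higher and 0 lower, with a median of 0.68 (range -0.14 to 1.74). The count of higher genes was 21 on the TPM scale and 23 to 28 when 1 library was left out, with 1 gene called lower without 2-D08 replicate 1. CDC6, a loader of the replicative helicase, rose by 1.74, MCM10 by 1.53 and GINS1 by 1.08 (edgeR adjusted p = 6.3e-08, 3.26e-07 and 3.85e-06; n = 2 per group). The rises of RRM1, TYMS and DCK (0.49 to 0.72) lay around the median of this list and that of RRM2 (1.24) above it. The summed level of the list was 1858 and 1840 CPM untreated and 2951 and 2789 CPM with 2-D08.

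**Figure D5:**
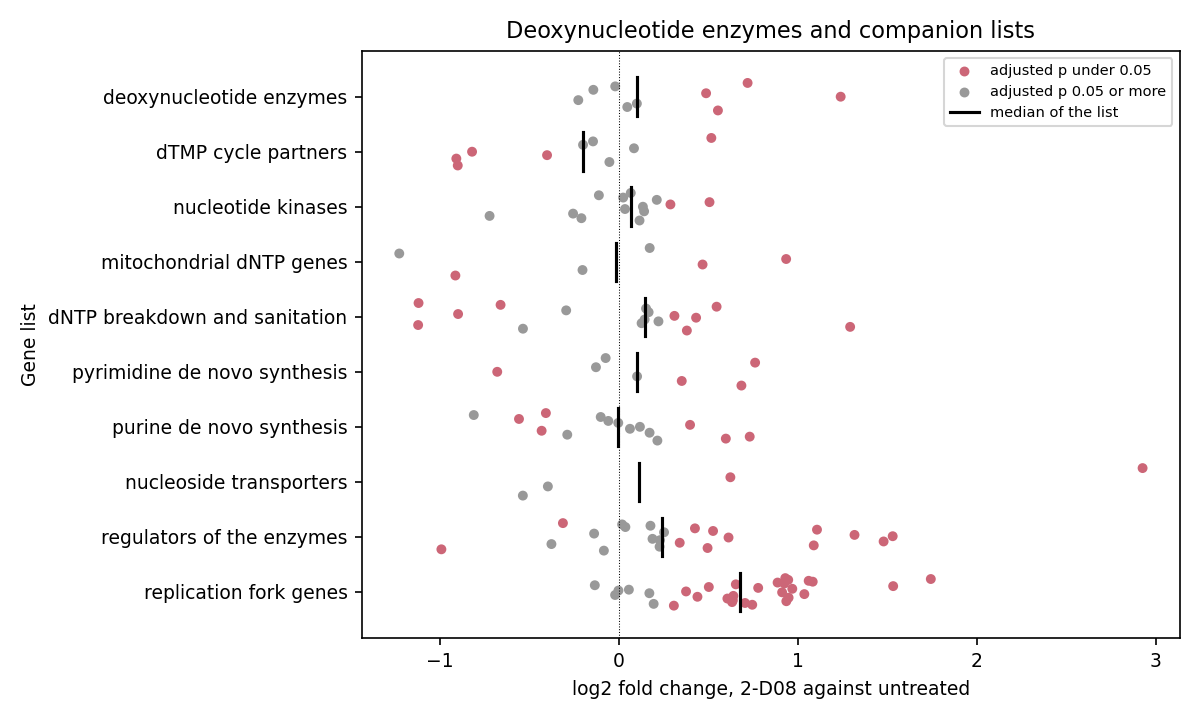
log2 fold change (2-D08 against untreated) of every tested gene in the deoxynucleotide enzymes and 9 of 10 companion lists, 1 point per gene (red, adjusted p under 0.05) with a bar at the median of each list. Replication fork genes have a median of 0.68 with no gene called lower, and the other lists have medians between -0.20 and 0.24.

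For RRM2 and SAMHD1, the largest riser and a gene that stayed near its level, the genes with the most similar profile over the 4 libraries were searched among 10501 others. Likeness was the root mean square distance of log2 CPM after centring each gene. Those nearest to RRM2 were NQO1, a quinone reductase (distance 0.0197; 23.2 and 25.3 CPM untreated, 57.1 and 55.8 CPM with 2-D08), SH3BGRL2 (0.0198) and the histone gene H4C14 (0.0373), whose reads may be shared with near-identical histone copies. Those nearest to SAMHD1 were ZRANB1 (0.00576), SYAP1 (0.00691) and SLC35G1 (0.00845). With 4 libraries in 2 groups such a distance mostly compares the size of 1 difference.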

How the data were processed

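Libraries were made with a Roche kit from RNA depleted of ribosomal RNA, per the labels' protocols. The submitters' processing notes name GRCh38, STAR 2.7.8a, cutadapt 3.4 and DESeq2. No counting tool, strand setting or annotation release is given in the sources used here. Deposited by the authors were whole-number counts per gene, TPM values, and a table of log2-like normalised values used only as an alternative. All columns were mapped to samples by name.

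Counts were filtered (filterByExpr, minimum count 10), scaled with TMM and tested with edgeR 4.0.16 (robust quasi-likelihood, two-sided, R 4.3.3) over 12906 genes, with Benjamini-Hochberg adjustment and a threshold of 0.05. SEs came from the F statistic, and the intervals built on them were not adjusted for the number of genes tested. The fit was tested on simulated data, with the same dispersion (spread between libraries) for all genes. It recovered 50.7% of 1.5-fold, 83.6% of 2-fold and 92.4% of 4-fold changes, and 3.21% of its calls were false. A change of 1.5-fold or less can thus go uncalled. Ratios used deposited TPM and an exact permutation test. The 9 enzymes and the companion lists were chosen with earlier results of these data known. The text names all 9, up to 3 genes of smallest p per list (mean of at least 1 CPM) and the 3 nearest profiles of RRM2 and SAMHD1 (mean of at least 5 CPM); some of these are not reported here. There were 15 alternatives: other scalings and filters, DESeq2 1.42.0, limma 3.58.1 (voom, log2(TPM + 1), log2(TPM + 0.1), deposited log2-like values), a replicate block, halved even libraries, and each library left out. Gene positions are from GENCODE release 29; start-site windows are from RefSeq.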

Additional observations from a re-analysis of the deposited data

How the results depend on the processing

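RRM2, TYMS and DCK were called in all 15 alternatives, and RRM1 in all but the one without untreated replicate 1. Of 12906 genes, 4376 were called; log2(TPM + 1) gave 1598 and log2(TPM + 0.1) 1608, and leaving out a library gave 1866 (without untreated replicate 1) to 6077 (without 2-D08 replicate 1). Both TPM scales called 49 companion list genes, 37 higher and 12 lower, in place of 79, 60 and 19, over 10 lists including 1 that is not reported here; leaving out a library gave 53 to 99 calls, 44 to 70 higher and 9 to 29 lower. Enzyme genes called were 3 to 5 when a library was left out, 3 to 4 higher and 0 to 1 lower (RRM2B).

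With the replicate block, 6239 genes and 5 enzyme genes were called, of which 1, RRM2B, was lower. The replicate numbers were not shown to pair the samples: same-numbered libraries deviated together with a correlation of 0.157 over 12906 genes and 0.398 over 10502 genes of at least 5 CPM, from 2 pairs.

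TK1, not called, reversed with voom (-0.0049) and without untreated replicate 2 (-0.045) or 2-D08 replicate 1, with a range of -0.16 to 0.23 when a library was left out. DCTD, not called, reversed with both TPM scales (0.13) and without untreated replicate 1 (0.039) or 2-D08 replicate 2 (range -0.13 to 0.081). TK2, called lower in counts, reversed to 0.11 with both TPM scales, and SLC29A2 without untreated replicate 1 (range -0.80 to 0.41). The median of the nucleoside transporters reversed with halved even libraries (-0.30) and without 2-D08 replicate 1 (-0.029) or replicate 2 (range -0.24 to 0.50). The cause was not tested.

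As CPM in place of TPM, the log2 difference between groups was 0.75 for RRM2 to RRM1 (0.58 in TPM; 0.51 to 0.64 when a library was left out), 1.14 for RRM2 to SAMHD1 (0.88; 0.80 to 0.97) and -0.70 for DUT to TYMS (-0.64; -0.69 to -0.60). Leaving out a library gave 1.23 to 1.64 for RRM2 to RRM2B, 0.34 to 0.72 for TYMS to TK1 and -0.88 to -0.45 for TK1 to DCK.

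Higher calls were 50.3% of all calls, and 43.9% and 44.4% with the TPM scales. DUT and SAMHD1 were not called in any setting.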
